A study of Mus musculus with 16 samples.

Results

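Histone marks were followed at 10 of the 22284 protein-coding genes of the mouse annotation, the Sox genes Sox21, Sox4, Sox11, Sox5, Sox6, Sox8, Sox9, Sox10, Sox7 and Sox18. The genes were chosen by name, with earlier results of these data known. A region of a mark was assigned to a gene where it overlapped the gene body or lay within 50 kb of any of its annotated transcription start sites (TSSs). This rule gave 211 regions, 114 in XX and 97 in XY ES cells, each described by its presence, width and edges.

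Chromatin immunoprecipitation followed by sequencing (ChIP-seq) of H3K27Ac, H3K27Me3 and H3K4Me1 in mouse ES cells with 2 X chromosomes (XX, female) or with an X and a Y (XY, male) addressed whether chromatin, like gene expression, differs between the sexes before differentiation. Each mark was measured in 2 XX lines and 2 XY lines, and with 1 IgG and 1 input library per sex the study had 16 libraries. For each sex and mark the authors deposited a list of enriched regions, which makes 6 lists, as chromosome, start and end on mm9. A list stands for a sex and a mark, does not separate the lines and holds no count or score, so no value below has an SD or a test, and all comparisons are descriptions of these lists. The XX lines (BCF3 and BCF4 in the labels) and the XY lines (BCM1 and BCM2) were hybrids of C57BL/6 and CAST/EiJ mice, cultured in serum with LIF at passages 7 to 10. All were grown on inactivated C57BL/6 fibroblasts made from pooled embryos of both sexes, most of which were removed before harvest. The lists cover the 3 marks only. IgG and input have no list of their own, and whether they were used to call the regions is not given.

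Sox proteins are transcription factors that bend DNA through an HMG box related to that of SRY, the testis determining factor, and the family is divided by sequence into subgroups with different roles. SoxB2 and SoxC proteins act in neural progenitors and young neurons, SoxD and SoxE proteins in cartilage, neural crest and glia, and SoxF proteins in endothelium and early endoderm. In undifferentiated ES cells many lineage regulators of this kind are held silent by Polycomb, which deposits H3K27Me3, whereas H3K27Ac marks active promoters and enhancers, and H3K4Me1 marks enhancers and the flanks of promoters whether active or primed.

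The stretches of DNA at which the lists could be read against sequence were the 300 bases around the start of 6 of the 10 genes, 250 upstream and 50 downstream, as RefSeq gives them for Sox21, Sox4, Sox11, Sox6 and Sox8 and as the mm9 assembly gives them at the annotated 5′ end of Sox5. They are shown because the marks over them differ from gene to gene and, at Sox11, Sox5 and Sox8, from list to list. Letters are in lower case, with CpG dinucleotides, the sites of DNA methylation, in capitals. All lie on the minus strand and are written 5′ to 3′ along transcription.
Sox21, chr14:118636203-118636502: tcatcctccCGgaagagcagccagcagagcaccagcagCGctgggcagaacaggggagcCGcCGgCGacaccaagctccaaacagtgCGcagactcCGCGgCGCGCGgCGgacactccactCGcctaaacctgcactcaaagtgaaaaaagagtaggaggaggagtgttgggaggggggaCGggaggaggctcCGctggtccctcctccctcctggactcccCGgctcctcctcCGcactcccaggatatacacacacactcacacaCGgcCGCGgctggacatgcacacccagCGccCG
Sox4, chr13:29045519-29045818: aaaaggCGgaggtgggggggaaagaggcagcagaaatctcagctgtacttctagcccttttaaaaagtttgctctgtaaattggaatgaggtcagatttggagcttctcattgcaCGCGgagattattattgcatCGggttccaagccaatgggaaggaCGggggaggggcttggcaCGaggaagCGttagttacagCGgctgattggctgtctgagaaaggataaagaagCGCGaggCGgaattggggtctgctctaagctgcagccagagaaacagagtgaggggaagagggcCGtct
Sox11, chr12:28027534-28027833: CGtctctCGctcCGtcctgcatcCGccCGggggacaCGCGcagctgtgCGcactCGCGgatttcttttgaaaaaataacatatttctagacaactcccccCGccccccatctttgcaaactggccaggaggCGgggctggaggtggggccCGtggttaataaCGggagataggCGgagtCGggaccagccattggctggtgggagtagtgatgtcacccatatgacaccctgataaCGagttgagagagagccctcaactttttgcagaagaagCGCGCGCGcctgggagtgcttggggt
Sox5, chr6:144730448-144730747: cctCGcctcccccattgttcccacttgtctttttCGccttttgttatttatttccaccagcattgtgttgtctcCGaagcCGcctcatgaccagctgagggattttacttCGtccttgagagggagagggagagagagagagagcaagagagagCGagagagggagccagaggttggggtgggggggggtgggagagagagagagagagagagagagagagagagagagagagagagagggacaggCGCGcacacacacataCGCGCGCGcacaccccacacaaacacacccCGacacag
Sox6, chr7:123182209-123182508: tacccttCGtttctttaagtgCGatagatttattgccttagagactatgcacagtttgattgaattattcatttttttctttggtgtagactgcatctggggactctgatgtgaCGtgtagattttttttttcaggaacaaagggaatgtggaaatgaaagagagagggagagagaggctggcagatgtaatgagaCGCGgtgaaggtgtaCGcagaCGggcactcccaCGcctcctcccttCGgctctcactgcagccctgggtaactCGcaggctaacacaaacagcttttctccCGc
Sox8, chr17:25707582-25707881: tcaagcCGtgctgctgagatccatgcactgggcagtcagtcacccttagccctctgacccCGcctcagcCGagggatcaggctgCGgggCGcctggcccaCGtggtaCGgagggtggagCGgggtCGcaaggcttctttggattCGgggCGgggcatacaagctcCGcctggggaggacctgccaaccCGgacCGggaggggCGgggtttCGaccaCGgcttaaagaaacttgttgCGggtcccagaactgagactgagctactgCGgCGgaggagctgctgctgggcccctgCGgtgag

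The Sox21, Sox11 and Sox8 sequences held 22, 21 and 21 CpG dinucleotides, more than 76.9%, 75.2% and 75.2% of the 32851 RefSeq promoters of the same length, whose median was 7. The Sox5, Sox4 and Sox6 sequences held 13, 12 and 11, more than 62.1%, 60.4% and 58.6% of promoters. Each of the 6 sequences shown thus held more CpG dinucleotides than the median promoter. RefSeq gives 6 promoters for Sox6, of which the one at the 5′ end is shown. The Sox6 promoter 7.70 kb downstream held 13 CpG dinucleotides and was covered over all 300 bases by H3K27Me3 and H3K4Me1 in both lists. The other 4, from 43.7 to 237 kb downstream, held 2 to 4 and none of the 3 marks, and 1 of them, 214 kb downstream, had 2 matches to the motif searched for next. The Sox core motif AACAAT, searched on both strands with its reverse complement ATTGTT, had 1 match in the Sox5 sequence (attgtt, near its upstream end) and none in the other 5, against 10.7% of the 32851 RefSeq promoters. H3K27Me3 covered all 300 bases of each of the 6 sequences in XX ES cells and of each but Sox11 in XY ES cells, where 0 of the 300 Sox11 bases were covered. The RefSeq promoter of Sox5 lies 835 kb downstream of the annotated 5′ end, held 3 CpG dinucleotides and was covered by none of the 3 marks in either list.

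H3K27Me3 lay within 2 kb of a TSS at all 10 genes in the XX list and at all 10 in the XY list, against 33% and 28.8% of all protein-coding genes, and 25.6% with the mark in both lists. The 10 genes were chosen with earlier results of these data known, which limits this contrast. Of 9 other Sox genes, 5 in XX and 4 in XY ES cells had H3K27Me3 there. H3K27Ac lay within 2 kb of a TSS at 4 of the 10 in XX ES cells, Sox21, Sox4, Sox11 and Sox5, and at 3 in XY ES cells, the same without Sox5, against 50.6% and 50.5% of all genes. H3K4Me1 lay there at 8 of the 10 in XX ES cells, all but Sox21 and Sox8, and at 9 in XY ES cells, all but Sox21, against 60.6% and 59.4%. Each of the 10 genes therefore had H3K27Me3 at 1 or more of its TSSs in both lists. H3K27Ac was so placed at the SoxB2 and SoxC genes in both lists and at Sox5 in XX alone. These counts are by gene and not by TSS. A Sox5 TSS 570 kb downstream of the 5′ end, for instance, had no H3K27Me3 within 2 kb in either list. The starts of Sox6, of the SoxE genes Sox8, Sox9 and Sox10 and of the SoxF genes Sox7 and Sox18 had no H3K27Ac in either list.

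Few starts differed between the lists in the presence of a mark. H3K27Ac lay at the start in both lists at 3 of the 10 genes, against 47.8% of all genes, and H3K4Me1 at 8 of the 10, against 55.4%. None of the 10 genes had H3K27Me3 at the start in XX alone or in XY alone, against 7.33% and 3.16% of all genes. For H3K27Ac 1 gene, Sox5, had it in XX alone (2.78% of all genes) and 0 in XY alone (2.74%), and for H3K4Me1 0 genes had it in XX alone (5.21%) and 1, Sox8, in XY alone (4.01%). Among the 10 genes, differences in presence at the start were thus limited to Sox5 and Sox8 under this distance. Where the TSS itself had to lie inside the region, H3K27Me3 was at 10 genes in XX and 9 in XY ES cells, without Sox11, against 25.9% and 21.7% of all genes. With the 5′ end alone in place of every annotated TSS, H3K27Me3 was again at all 10 in each list, against 30.8% of all genes in XX and 26.9% in XY ES cells, and H3K27Ac again at 4 and 3, against 48.1% and 48.3%. H3K4Me1 then lay at 8 genes in XX (58% of all genes) and 8 in XY ES cells (57%), since Sox5 dropped out in XY ES cells.

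**Figure D1:**
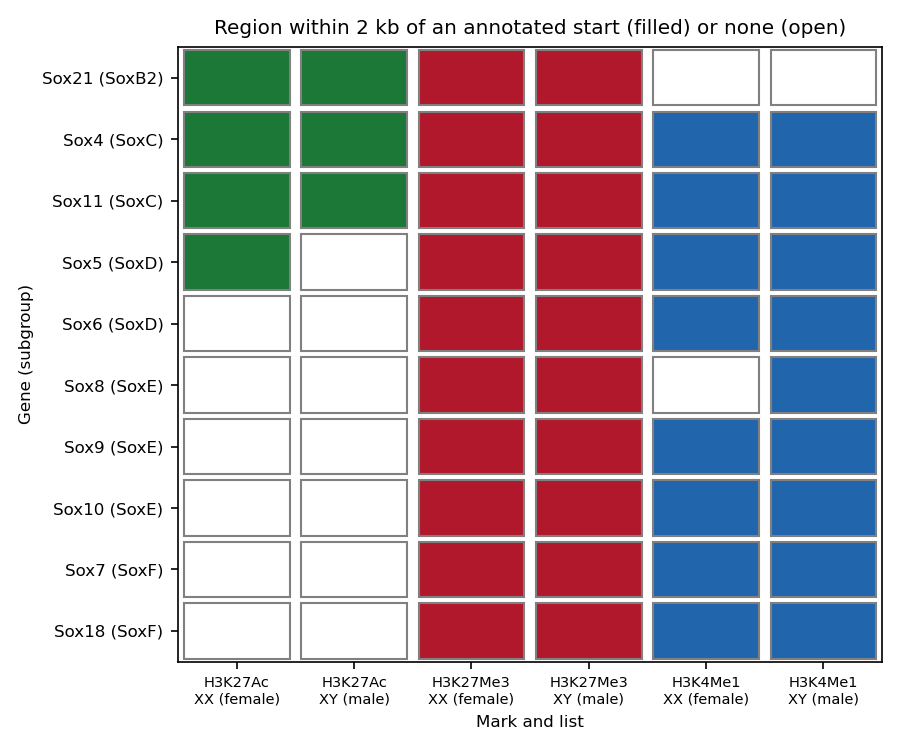
Each square shows whether a region of the mark named below lay within 2 kb of a TSS of the gene named at the left (filled) or not (open), in the XX (female) and XY (male) list. H3K27Me3 is filled for all 10 genes in both lists, and the 2 rows in which the lists differ are Sox5 for H3K27Ac and Sox8 for H3K4Me1.

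Several genes had more than 1 mark at their starts. H3K27Me3 and H3K27Ac both lay within 2 kb of a TSS at 4 of the 10 genes in XX and 3 in XY ES cells, against 15.1% and 12.7% of all genes. H3K27Me3 and H3K4Me1 did so at 8 and 9, against 25.9% and 22.1%. Each mark was counted at any TSS of a gene, so 2 marks need not share a TSS. In XY ES cells Sox5 was counted with H3K27Me3 at its 5′ end and H3K4Me1 at a TSS 570 kb downstream. All 3 marks lay at Sox4, Sox11 and Sox5 in XX ES cells and at Sox4 and Sox11 in XY ES cells, against 14.2% and 11.9%. Counted over all 114 and 97 regions, 12 of 30 H3K27Ac regions in XX ES cells (40%) and 8 of 28 in XY ES cells (28.6%) overlapped an H3K27Me3 region, against 16% and 13.7% of all H3K27Ac regions. ChIP of a cell population does not tell whether marks that overlap sat on the same chromosome copy or in different cells, nor a mark present in fewer cells from a weaker one in all of them.

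Beyond the start, H3K27Me3 and H3K4Me1 were found over or within 50 kb of a TSS of all 10 genes in both lists, against 67.3% of all genes for H3K27Me3 in XX and 61.6% in XY ES cells, and 77.8% and 77.5% for H3K4Me1. H3K27Ac was found at 9 of the 10 in each list, all but Sox7, against 80% and 78.8%. At Sox8 and Sox10 every such H3K27Ac region lay nearer a TSS of another gene. Summed over the 100 kb centred on the 5′ end, H3K27Me3 covered a median of 19.1 kb at the Sox genes in XX and 20.1 kb in XY ES cells, against 5.20 and 3.4 kb over all genes, and each of the 10 was above that median in each list. The H3K27Me3 lengths ran from 7.80 kb at Sox5 to 52.4 kb at Sox10 in XX, and from 8.60 kb at Sox5 to 33.2 kb at Sox21 in XY ES cells. The order within the group was thus led by Sox10, Sox9 (35.7 kb) and Sox21 (35.6 kb) in XX, and by Sox21, Sox9 (32.1 kb) and Sox10 (29.9 kb) in XY ES cells. H3K27Ac covered medians of 3.70 kb in XX and 3.20 kb in XY ES cells, against 7.00 kb over all genes in both, with 4 of the 10 above (Sox4, Sox11, Sox10 and Sox18). H3K4Me1 covered medians of 16.1 and 22.0 kb, against 18.7 and 17.6 kb, so for this mark the Sox genes lay on both sides of the common level.

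**Figure D2:**
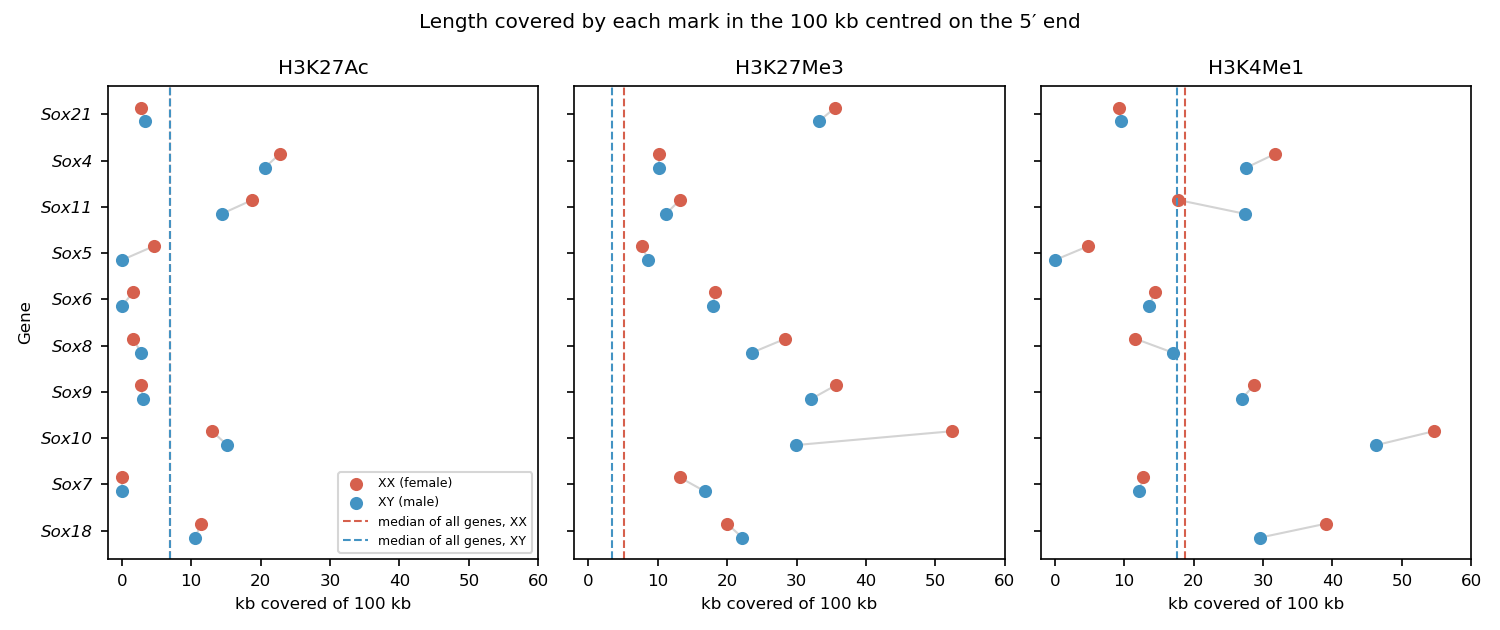
Points give the length covered by each mark, in kb of the 100 kb centred on the 5′ end, for each Sox gene in the XX (female, upper point) and XY (male, lower point) list, and dashed lines give the medians over all 22284 genes (for H3K27Ac the 2 lines coincide near 7.00 kb). All H3K27Me3 points lie to the right of the medians, and the widest gap between lists is at Sox10, with 52.4 kb in XX and 29.9 kb in XY ES cells.

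Of the 114 regions in XX ES cells 21 had no overlap of at least 1 bp with a region of the same mark in XY ES cells (female-only), and of the 97 in XY ES cells 9 had none in XX ES cells (male-only). The female-only regions were 4 of 30 for H3K27Ac (13.3%), 8 of 35 for H3K27Me3 (22.9%) and 9 of 49 for H3K4Me1 (18.4%), against 19.1%, 39.8% and 21.8% of the whole lists. The male-only regions were 1 of 28 (3.57%), 3 of 28 (10.7%) and 5 of 41 (12.2%), against 10.4%, 23.6% and 13.1%. Regions at the Sox genes were thus shared between the lists at least as often as regions in general, and the gap was widest for H3K27Me3. An overlap of 1 bp was enough for sharing and the regions were not matched for width, so the part of width was not tested. By gene, a female-only region lay at 3 of the 10 for H3K27Ac (Sox4, Sox5 and Sox6, against 31.3% of all genes), at 4 for H3K27Me3 (Sox21, Sox11, Sox5 and Sox10, 43.1%) and at 5 for H3K4Me1 (Sox5, Sox9, Sox10, Sox7 and Sox18, 47.4%). A male-only region lay at 1 for H3K27Ac (Sox4, 19.9%), at 3 for H3K27Me3 (Sox11, Sox5 and Sox18, 22.7%) and at 4 for H3K4Me1 (Sox11, Sox5, Sox6 and Sox8, 25.4%). Read against these shares of all genes, the counts in XX ES cells were near the background for each mark and those in XY ES cells lay on both sides of it, and Sox5, which is 954 kb long, was in 5 of the 6 groups.

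Facts of the whole lists bear on these counts. The XX list was longer than the XY list for each mark, 28784 against 26100 regions for H3K27Ac, 18534 against 15138 for H3K27Me3 and 39404 against 34800 for H3K4Me1, and neither the threshold nor the read depth behind a list is known. Of 9 ES cell markers with an annotation, all 9 had H3K27Ac within 2 kb of a TSS in both lists, and H3K27Me3 lay at 2 in XX and at 4 in XY ES cells (Sall4 and Fgf4 in XY alone). Of 14 fibroblast markers, listed for the feeder cells, 2 had H3K27Ac at the start in XX and 4 in XY ES cells, with Col1a1 and Twist1 in XY alone, 5 and 8 had H3K4Me1 (Twist1, Twist2 and Dcn in XY alone), and 10 and 9 had H3K27Me3 (Lum in XX alone). Of 13 primitive endoderm markers 6 had H3K27Ac in each list (Thbd in XX alone and Foxa2 in XY alone), 11 had H3K27Me3 in each and 12 had H3K4Me1 in each (Sox17 in XX alone and Col4a1 in XY alone). The part that list length or other cells had in the differences at the Sox genes was not tested.

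Sox21, the SoxB2 gene, which opposes SoxB1 proteins in neural progenitors, combined broad H3K27Me3 with a narrow H3K27Ac region over its start (gene at chr14:118632454-118636252, minus strand). H3K27Ac reached from 0.347 kb upstream to 2.45 kb downstream of the 5′ end in XX ES cells, and from 0.547 kb upstream to 2.85 kb downstream in XY ES cells. H3K27Me3 reached from 5.15 kb upstream to 22.1 kb downstream in XX ES cells, in 2 regions with a gap of 0.801 kb, and from 2.95 kb upstream to 28.3 kb downstream in XY ES cells, as 1 region of 31.2 kb, wider than 99.2% of the XY list. The H3K27Ac regions thus lay inside the H3K27Me3 domain in both lists, and that domain reached farther upstream in XX and farther downstream in XY ES cells. H3K4Me1 spared the start, beginning 3.85 kb downstream of the 5′ end in XX and 4.05 kb downstream in XY ES cells, next to the 3′ end of the gene. A female-only H3K27Me3 region of 1.80 kb lay 5.95 kb upstream, 3.00 kb from the nearest XY region. Another H3K27Me3 region downstream was 7.40 kb wide in XX and 2.0 kb in XY ES cells.

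Sox4 and Sox11, the SoxC genes, which promote neuronal differentiation and progenitor survival, had all 3 marks at the start in both lists. Sox4 (chr13:29040788-29045582, minus strand) had 22.8 kb of H3K27Ac in the 100 kb around its 5′ end in XX and 20.6 kb in XY ES cells, and Sox11 (chr12:28025562-28027574, minus strand) had 18.8 and 14.4 kb. The Sox4 start region of H3K27Ac spanned 1.82 kb upstream to 9.98 kb downstream in XX ES cells (11.8 kb) and 2.02 kb upstream to 7.98 kb downstream in XY ES cells (10.0 kb). Sox4 H3K27Me3 ran from 3.82 kb upstream to 1.98 kb downstream in XX and from 4.22 kb upstream to the same edge in XY ES cells, and 93.5% of the union lay in both lists. The 3 marks therefore overlapped at the Sox4 start in both lists, with H3K27Me3 on the upstream side and H3K27Ac running through the gene. H3K4Me1 there reached 6.42 kb upstream in XX ES cells, against 2.02 kb in XY ES cells, a difference of 4.40 kb. Farther out, Sox4 had a female-only H3K27Ac region of 3.00 kb, 41.8 to 44.8 kb downstream, over H3K4Me1 present in both lists, and a male-only H3K27Ac region of 1.80 kb, 10.4 to 12.2 kb downstream, which lay 0.402 kb from the XX start region.

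At Sox11 the upstream edge of H3K27Me3 differed between the lists while H3K4Me1 did not. H3K27Me3 spanned 3.63 kb upstream to 4.17 kb downstream of the 5′ end in XX ES cells (7.80 kb) and 0.375 to 4.17 kb downstream in XY ES cells (3.80 kb). Both regions ended at the same base downstream, so the whole difference of 4.0 kb lay on the promoter side, and the 300 promoter bases shown above were inside the mark in XX alone. H3K27Ac was also wider upstream in XX ES cells, starting 2.43 kb before the 5′ end, against 1.23 kb in XY ES cells, with the same downstream edge at 1.57 kb. H3K4Me1 started at the same base, 2.43 kb upstream, in both lists and ended 7.57 kb downstream in XX and 7.77 kb downstream in XY ES cells. The next H3K27Ac region, 2.78 kb downstream, was 4.40 kb wide in XX and 1.40 kb in XY ES cells. A female-only H3K27Me3 region of 3.00 kb followed 4.98 kb downstream, 0.802 kb from the XY start region. The RefSeq gene is 8.45 kb long against 2.01 kb in the annotation used, with starts 0.009 kb apart, so these regions lie within the RefSeq gene body in part.

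The male-only regions of Sox11 lay farther from the gene. An H3K27Me3 region of 4.40 kb lay 35.2 to 39.6 kb downstream, 15.2 kb from the nearest XX region. H3K4Me1 regions of 4.60 kb (45.0 to 49.6 kb upstream) and 5.20 kb (28.4 to 33.6 kb downstream) were also in XY alone. Each of these H3K4Me1 regions overlapped an H3K27Ac region that was in both lists, so the acetylation was shared where the H3K4Me1 was not. In all, H3K4Me1 covered 17.8 kb of the 100 kb around Sox11 in XX and 27.4 kb in XY ES cells, the widest gap in favour of XY for this mark.

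**Figure D3:**
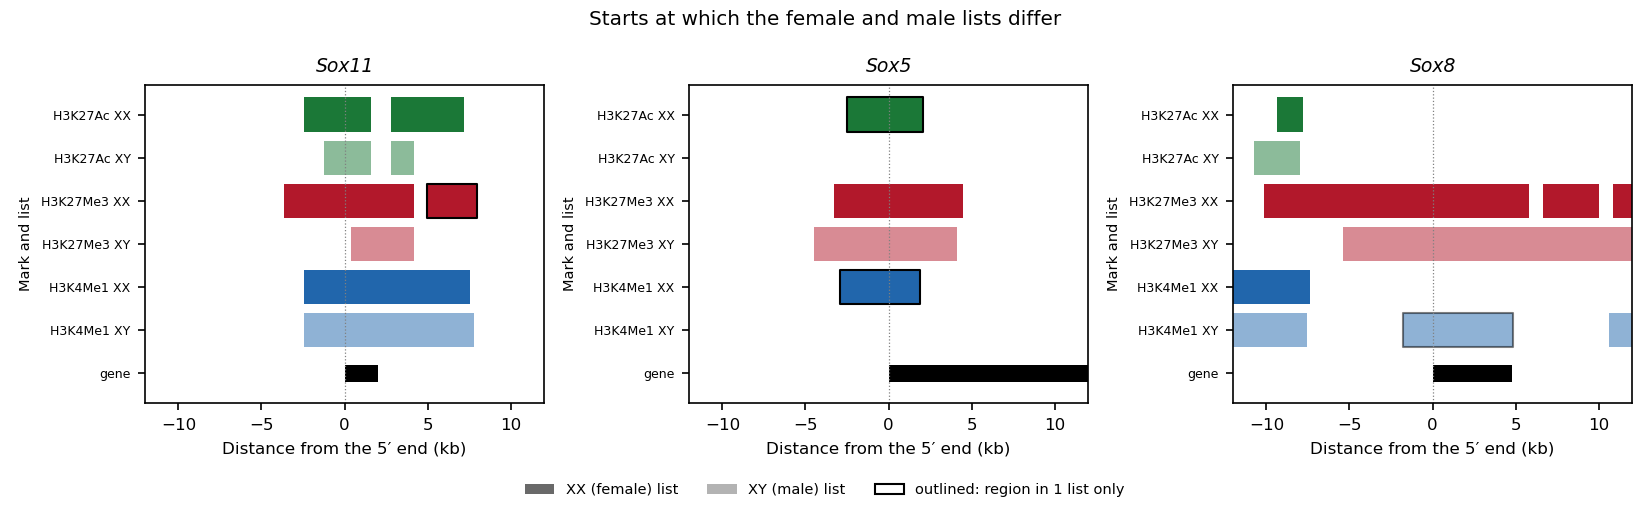
Horizontal bars are enriched regions of the 3 marks at the starts of Sox11, Sox5 and Sox8 against the distance from the 5′ end in kb, in full colour for XX (female) and pale for XY (male), with regions in 1 list only outlined and the gene in black. At Sox11 H3K27Me3 begins 3.63 kb upstream in XX and 0.375 kb downstream in XY ES cells, at Sox5 H3K27Ac and H3K4Me1 are in XX alone, and at Sox8 H3K4Me1 over the start is in XY alone.

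Sox5 and Sox6, the SoxD genes, lack an activation domain of their own and work with Sox9 in cartilage. They are long (954 kb at chr6:143776945-144730497 and 567 kb at chr7:122614858-123182258, both on the minus strand), with 12 and 5 annotated TSSs. The 5′ end of Sox5 was the only Sox start with a female-only H3K27Ac region, against 2.78% of all genes with H3K27Ac at the start in XX alone. It lay at chr6:144728401-144732999 (4.60 kb, 2.50 kb upstream to 2.1 kb downstream), and the nearest XY region of the mark was 214 kb away. A female-only H3K4Me1 region at chr6:144728601-144733399 (4.80 kb) covered the same start, 105 kb from the nearest XY region. H3K27Me3 covered it in both lists, from 3.30 kb upstream to 4.50 kb downstream in XX ES cells, in 2 regions 0.001 kb apart, and from 4.50 kb upstream to 4.10 kb downstream in XY ES cells. Hence XX ES cells had all 3 marks at the Sox5 5′ end and XY ES cells H3K27Me3 alone, and in the 100 kb around it XY ES cells had 0 kb of H3K27Ac and of H3K4Me1. H3K4Me1 at another Sox5 TSS, 570 kb downstream, was in both lists, 4.0 kb wide in XX and 3.00 kb in XY ES cells.

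Inside Sox5 the intronic H3K27Ac and H3K4Me1 regions that the lists shared lay 254 to 534 kb from the 5′ end. The 6 shared intronic H3K27Ac regions were 2.40 to 7.00 kb wide in XX and 2.40 to 6.60 kb in XY ES cells, and 5 of them overlapped H3K4Me1 in both lists. The largest, 505 kb downstream of the 5′ end, was 7.00 kb wide in XX and 6.60 kb in XY ES cells, with both edges 0.2 kb apart between the lists as listed. A female-only H3K27Ac region of 2.20 kb lay 0.202 kb from that XY region and 1 base from the XX one, and the 2 XX regions joined span 9.20 kb and overlap the XY region. Apart from it, the intronic acetylation of Sox5 was thus in both lists, and that of the start in XX alone. H3K27Me3 in the gene body had 3 female-only regions (4.60, 1.20 and 1.60 kb wide) and 1 male-only region (3.20 kb), beside a shared region 421 kb downstream that was 4.60 kb wide in XX and 5.20 kb in XY ES cells. For H3K4Me1, 2 further regions were in XX alone (2.20 and 1.0 kb) and 1 was in XY alone (4.2 kb).

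At Sox6 the marks of the start were the same in both lists. H3K27Me3 covered the 5′ end over 15.6 kb in XX and 15.8 kb in XY ES cells, wider than 94.6% and 95.4% of the lists. H3K4Me1 lay in 2 regions inside that domain, the outer edge 2.34 kb upstream in both lists. No H3K27Ac was found within 2 kb of a Sox6 TSS, but 2 intronic regions carried it with H3K4Me1 in both lists, 165 to 176 kb downstream in XX (10.6 kb) and 169 to 175 kb downstream in XY ES cells (6.20 kb), and 303 to 309 kb downstream (6.20 kb in each). The gene thus had acetylation in its introns and H3K27Me3 at its start. A female-only H3K27Ac region of 1.60 kb lay 33.9 kb upstream, over H3K4Me1 found in both lists, with the TSS of Gm4353 as the nearest. A male-only H3K4Me1 region of 5.0 kb lay 492 kb downstream, over an exon.

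**Figure D4:**
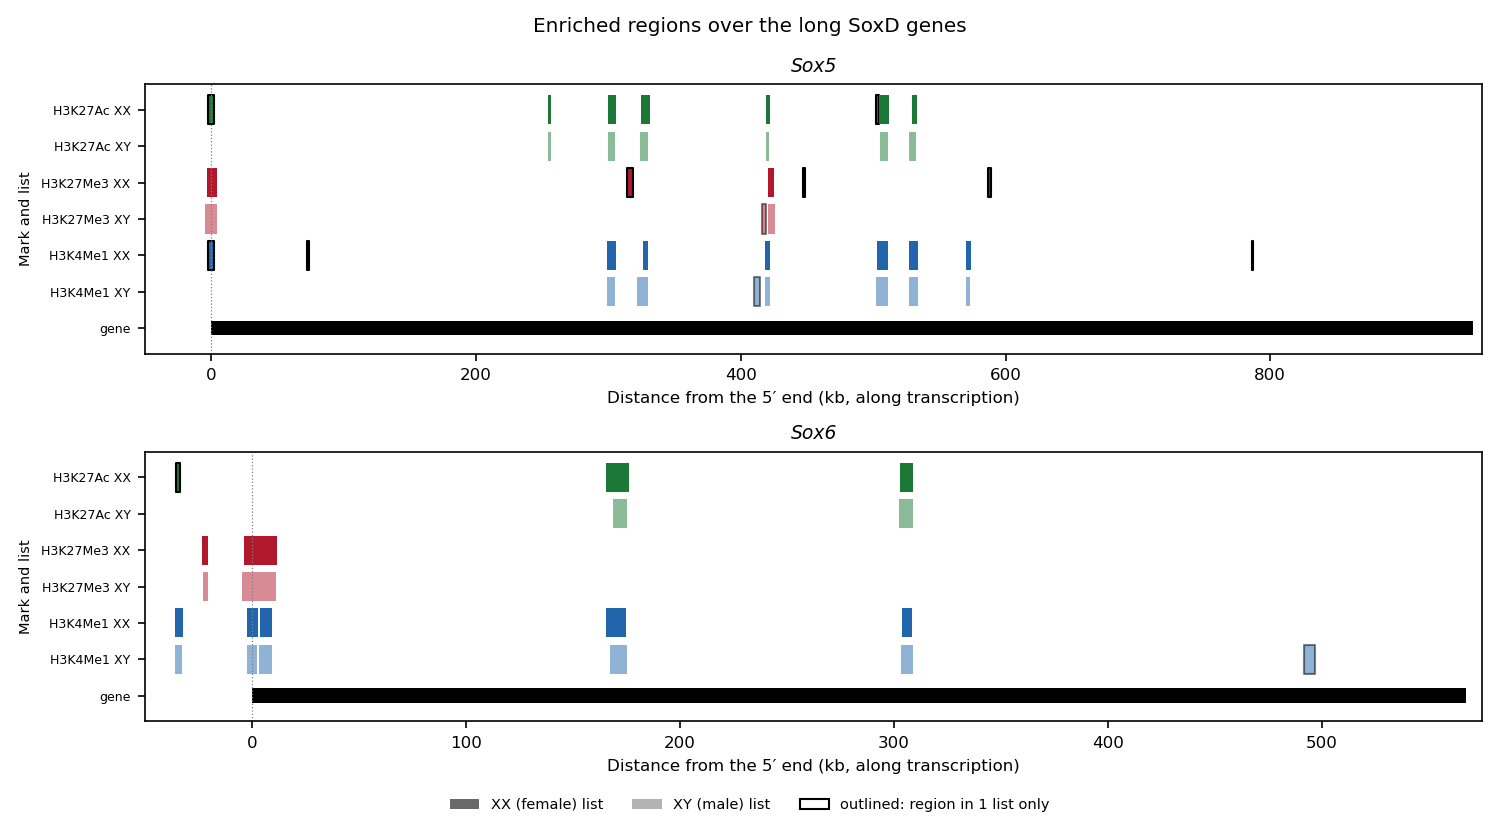
Bars are enriched regions along Sox5 (upper) and Sox6 (lower) against the distance from the 5′ end in kb, in full colour for XX (female) and pale for XY (male), outlined where in 1 list only, with the gene in black. H3K27Me3 covers both 5′ ends in both lists, and 6 intronic H3K27Ac regions of Sox5, 2.40 to 7.00 kb wide in XX ES cells, pair with regions of the XY list, while that of 2.20 kb is in the XX list alone.

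Sox8, Sox9 and Sox10, the SoxE genes, act in neural crest and glia, and Sox9 also in cartilage and in testis determination. All 3 had broad H3K27Me3 over the start and no H3K27Ac there. At Sox9 (chr11:112643538-112649074, plus strand) the start domain was 14.0 kb wide in XX and 16.2 kb in XY ES cells, and at Sox10 (chr15:78985343-78994920, minus strand) 17.4 and 13.2 kb. At Sox8 (chr17:25702837-25707631, minus strand) H3K27Me3 ran from 10.2 kb upstream to 19.8 kb downstream in XX ES cells, in 3 regions with gaps of 1.60 kb in all, and from 5.37 kb upstream to 18.2 kb downstream in XY ES cells, as 1 region of 23.6 kb, wider than 98.2% of the XY list. The TSSs of all 3 genes therefore lay inside H3K27Me3 in both lists.

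Sox8 was the only Sox gene with H3K4Me1 at the start in XY alone, against 4.01% of all genes. The male-only region, chr17:25702801-25709399, was 6.60 kb wide and spanned the whole gene, from 1.77 kb upstream to 4.83 kb downstream of the 5′ end, and the nearest XX region lay 5.60 kb away. H3K4Me1 on either side of the gene was in both lists, 7.37 kb upstream and beyond in XX and 7.57 kb in XY ES cells, and 12.8 kb downstream and beyond in XX and 10.6 kb in XY ES cells. The lists thus agreed in the presence of H3K4Me1 on the flanks of Sox8 and differed over the gene. The extent of the flanks differed: 65.2% of the union upstream and 47.8% downstream lay in both lists. The median over all H3K4Me1 stretches in both lists was 77.8%. The only H3K27Ac region near Sox8 lay over a TSS of its neighbour Lmf1, 1.60 kb wide in XX and 2.80 kb in XY ES cells.

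At Sox9 regions lay in both lists along most of the 50 kb downstream. H3K4Me1 over its start was 12.4 kb wide in XX and 11.6 kb in XY ES cells, within 1.40 kb of each other at both edges. Regions of H3K27Me3 followed downstream, the last ending at 51.3 kb in XX and 51.1 kb in XY ES cells, and together 25.8 kb around Sox9 carried both H3K27Me3 and H3K4Me1 in XX and 22.6 kb in XY ES cells. Within that stretch lay the single H3K27Ac region of Sox9, 27.7 to 30.5 kb downstream in XX and 27.3 to 30.3 kb in XY ES cells. It overlapped both other marks in both lists. The H3K27Me3 region under it was 12.6 kb wide and unbroken in XX ES cells, and in XY ES cells was in 2 regions of 1.20 and 6.80 kb with a gap of 0.801 kb. A female-only H3K4Me1 region of 4.2 kb lay 34.9 kb downstream, 2.20 kb from the nearest XY region.

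Sox10 showed the largest difference in H3K27Me3 length. Around its 5′ end the mark covered 52.4 kb of 100 kb in XX and 29.9 kb in XY ES cells, a difference of 22.5 kb, where 90% of all genes differed by at most 10.4 kb. Most of it lay in 3 female-only regions, 7.40 kb wide (10.1 to 17.5 kb upstream), 8.20 kb wide (22.3 to 30.5 kb downstream) and 3.80 kb wide (42.9 to 46.7 kb downstream). The start domain itself also reached farther upstream in XX ES cells, to 9.08 kb, against 5.28 kb in XY ES cells. The female-only region 22.3 kb downstream reached the TSS of the neighbouring 1700088E04Rik, where H3K27Ac and H3K4Me1 lay in both lists. The female-only region 42.9 kb downstream lay nearest to a TSS of Micall1, at 8.79 kb. H3K4Me1 at the Sox10 start was 8.40 kb wide in XX and 6.00 kb in XY ES cells with the same downstream edge, and 2 female-only H3K4Me1 regions of 2.60 and 3.20 kb lay upstream. For H3K27Ac the order was the reverse, with 13.0 kb of 100 kb in XX and 15.2 kb in XY ES cells. Each of these H3K27Ac regions, however, lay nearer a TSS of 1700088E04Rik or Pick1 than one of Sox10.

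Sox7 and Sox18, the SoxF genes, act in blood and lymphatic vessels, and Sox7 also in extraembryonic endoderm. Sox7 (chr14:64562511-64569569, plus strand) was the only gene of the 10 with no H3K27Ac region over it or within 50 kb in either list. H3K27Me3 lay over its start in 2 regions from 10.3 kb upstream to 4.29 kb downstream in XX ES cells, with a gap of 1.40 kb, and in 1 region of 16.8 kb from 10.1 kb upstream to 6.69 kb downstream in XY ES cells. H3K4Me1 followed the same shape, in 2 regions from 8.91 kb upstream to 2.29 kb downstream in XX and in 1 region from 10.5 kb upstream to 1.69 kb downstream in XY ES cells. Both marks were thus continuous in XY and broken upstream of the gene in XX ES cells. A female-only H3K4Me1 region of 3.00 kb, 48.1 kb downstream, reached the TSS of Rp1l1.

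Sox18 (chr2:181404541-181406345, minus strand) had H3K27Me3 over its start from 4.45 kb upstream to 5.34 kb downstream in XX and from 4.05 kb upstream to 7.94 kb downstream in XY ES cells. H3K4Me1 over the start ended 1.74 kb downstream in both lists and began 10.1 kb upstream in XX and 11.3 kb upstream in XY ES cells. The 4 H3K27Ac regions near Sox18 were found in both lists, and the 2 upstream of it reached the TSSs of its neighbours Tcea2 and Rgs19. Acetylation around Sox18 therefore lay away from its own start. Female-only H3K4Me1 regions of 3.20 and 5.60 kb lay 6.75 and 31.5 kb downstream, and a male-only H3K27Me3 region of 2.40 kb lay 33.5 kb upstream, nearest to 4930526D03Rik.

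**Figure D5:**
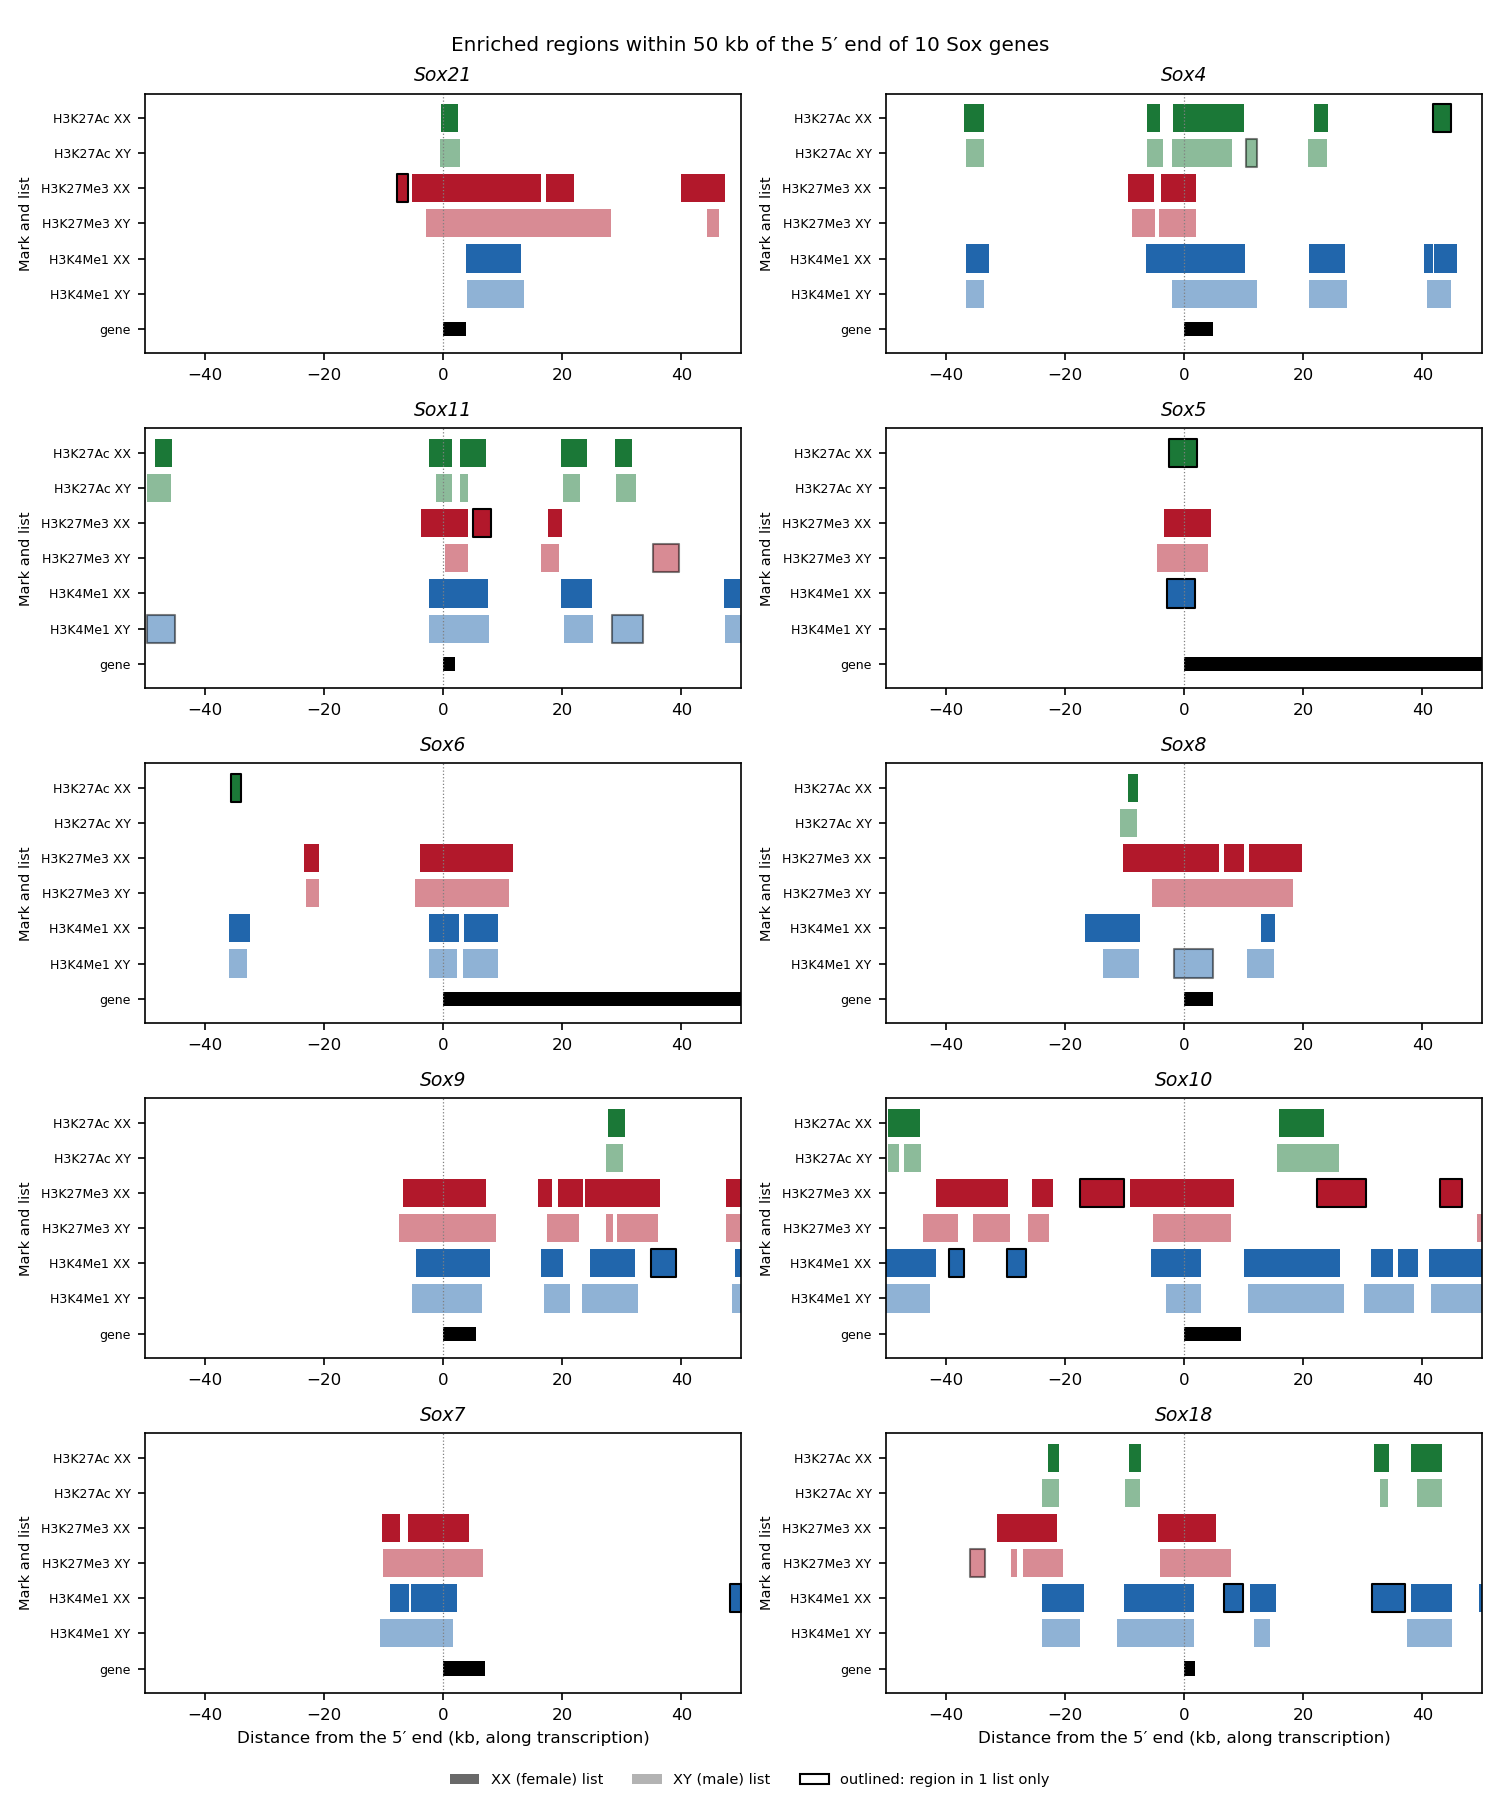
Each panel draws the enriched regions within 50 kb of the 5′ end of a Sox gene, at 0 on the axis in kb along transcription, in full colour for XX (female) and pale for XY (male), outlined where in 1 list only, with the gene in black. H3K27Me3 lies over or, at Sox11 in XY ES cells, 0.375 kb downstream of every 5′ end, and Sox7 has no H3K27Ac in either list.

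Edges of the regions that the lists shared lay close together at the median, with wider differences at some. After joining overlapping regions of both lists into stretches, 26 of 31 H3K27Ac stretches at the Sox genes (83.9%) were in both lists, as were 22 of 33 for H3K27Me3 (66.7%) and 37 of 51 for H3K4Me1 (72.5%), against 73%, 48.2% and 66.9% over all stretches. The median distance between an XX and an XY edge was 0.4 kb for H3K27Ac, 0.6 kb for H3K27Me3 and 0.6 kb for H3K4Me1 at the Sox genes, against 0.4, 0.8 and 0.6 kb over all stretches, on a grid of 200 bp. At the median, edges at the Sox genes were hence placed about as exactly as elsewhere. The 90th percentiles at the Sox genes were 1.38 kb for H3K27Ac, 3.68 kb for H3K27Me3 and 1.74 kb for H3K4Me1. Over all stretches they were 1.6, 3.2 and 2.6 kb, so for H3K27Me3 the larger differences were wider at the Sox genes. Of the H3K27Me3 stretches in both lists, 40.9% of those at the Sox genes were broken into several regions in at least 1 list, against 16.6% of all (9 of 22 and 1693 of 10205). The 2 sets were not matched for the width of the stretches, and the part of width in this difference was not tested. The 9 ran both ways, with 5 broken in XX alone (at the Sox21, Sox5, Sox8 and Sox7 starts and 15.9 kb downstream of Sox9) and 4 in XY alone (23.9 kb downstream of Sox9, 52.3 kb downstream and 41.7 kb upstream of Sox10 and 31.5 kb upstream of Sox18, by their XX edge). The gaps were 0.601 to 2.40 kb or sums of such gaps, except at Sox5, where the 2 XX regions lay 1 base apart. Each region ends 1 base before the next step of the grid, so regions in adjoining windows can be listed apart. With regions 1 base apart joined, 8 of the 22 were broken (36.4%), against 16.1% of all, 4 in XX alone and 4 in XY alone.

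H3K27Me3 over the start was also wide relative to the lists. The median H3K27Me3 region was 4.2 kb wide in XX and 4.40 kb in XY ES cells. All start regions of the 10 genes exceeded these medians except Sox5 in XX ES cells (4.0 kb, which adjoins a second XX region 1 base away and makes 7.80 kb with it) and Sox11 in XY ES cells (3.80 kb). The sex-only H3K27Me3 regions were narrower than the shared ones, with medians of 3.4 kb for the female-only ones against 5.80 kb for the shared XX ones, and 3.20 against 6.20 kb in XY ES cells.

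The other members of the family, taken from a list of 10 of which 9 had an annotation, had varied starts. Sox2, a core pluripotency factor, Sox12 and Sox15 had H3K27Ac and H3K4Me1 and no H3K27Me3 at the start in either list. Sox13 had all 3 marks in both lists and Sox14 H3K27Me3 and H3K4Me1. Sox30 had H3K27Me3 and H3K4Me1 in both lists and H3K27Ac in XY ES cells alone. At the X-linked Sox3 both H3K27Me3 and H3K4Me1 were in XX ES cells alone, and at Sox17, an endoderm regulator, H3K27Me3 was in both lists and H3K4Me1 in XX alone. Sry, on the Y chromosome, which XX cells lack, had no region of any mark at its start in either list. In sum over the 9, H3K27Me3 lay at the start of 5 in XX and 4 in XY ES cells, H3K27Ac at 4 and 5, and H3K4Me1 at 8 and 6. Of 29 other developmental regulators listed as Polycomb targets, all 29 had H3K27Me3 at the start in both lists and 5 had H3K27Ac in each (Nkx2-2 and Eomes in XX alone, Foxa2 and Irx3 in XY alone), and 26 and 28 had H3K4Me1 (Pax3 and Neurog1 in XY alone). Of 15 housekeeping genes 2 had H3K27Me3 and 14 H3K27Ac in each list, and 15 in XX and 14 in XY ES cells had H3K4Me1 (B2m in XX alone). Each of the 10 Sox genes thus had H3K27Me3 at a start, as did the 29 regulators. These 29 were listed as Polycomb targets, so they are no independent comparison for H3K27Me3. H3K27Ac lay at a start of 4 and 3 of the 10 Sox genes, against 5 of 29 in each list, a difference that was not tested.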

How the data were processed

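ChIP-seq reads of 2 XX and 2 XY mouse ES cell lines per mark were aligned by the authors to mm9 with Bowtie2, and enrichment was determined with Bedtools. Bowtie, deepTools and mm9 are named in the submitters' processing notes. The deposited lists give positions alone, with no count or score, so each value here is a position or a width computed from the authors' coordinates. How regions were called, at which threshold, from which combination of lines and with what use of the control libraries is not given in the sources used here. Since the depth behind a list is unknown, so is the precision with which a region is present or absent. All starts lay on a grid of 200 bp and all ends 1 base short of it (0 edges off), and 0 columns were left unused.

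Gene models were the protein-coding genes of GENCODE M1 on NCBIM37, the same assembly as mm9, 22380 models joined by symbol to 22284 genes (Sox4 has 2 models). The RefSeq gene lengths and promoters came from tables whose build is GRCm38.p6. The promoters, 11 for 6 of the 10 genes, were located in NCBIM37 by exact match, and the 300 bases at the Sox5 5′ end were read from NCBIM37. Those of Sox7, Sox9, Sox10 and Sox18 were not used here.

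Regions of the same mark with at least 1 bp in common were counted as shared. Starts were taken within 2 kb of any annotated TSS, and coverage within 100 kb centred on the 5′ end. The lists hold no values per line, so no test was made, and counts are given beside those over all genes. The members were fixed by name, all 10 are named, the 9 other Sox genes with a matched annotation are named (Sox1 was not analysed here), and genes of the other lists only where a mark was in 1 list. Gata4, Gata6 and Foxa2 are in both the endoderm and the Polycomb list, and Sox17 is in the endoderm list and among the other Sox genes. The members and lists were chosen with earlier results of these data known. Alternatives were other distances, overlaps, list lengths and start sites, and joining regions 1 base apart, which was chosen after seeing the data. Overlap counts were checked against Bedtools 2.31.1 (6 of 6 equal), and the scripts (Python 3.11.15, NumPy 2.4.6, matplotlib 3.10.9) were tested on simulated data.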

Additional observations from a re-analysis of the deposited data

How the results depend on the processing

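Of 60 alternative counts of Sox genes with a region in 1 list only, 46 were within 1.5 times the reported count and 14 were not, and of 126 other counts and lengths 112 were within it and 14 were not. Shares in brackets are those of all genes under the same setting. In the counts of regions in 1 list only, regions over the gene body were included under each distance. A region counted within 5 kb can therefore lie farther from a TSS, as the intronic regions of Sox5 do. Female-only H3K27Ac, reported at 3 genes (31.3%), lay at 1 within 5 kb of a TSS (12.5%), at 5 within 100 kb (46.9%) and at 6 under a reciprocal overlap of 50% (47.4%). Female-only H3K27Me3, reported at 4 (43.1%), lay at 2 within 5 kb (15.6%), at 7 within 100 kb (59.1%), at 7 under the reciprocal overlap (54.2%) and at 2 with regions up to 1 kb apart merged (41.4%). Female-only H3K4Me1, reported at 5 (47.4%), lay at 1 within 5 kb (21.4%). Male-only H3K27Ac, reported at 1 (19.9%), lay at 0 within 5 kb (7.99%), at 5 under the reciprocal overlap (39.6%) and at 0 with a gap of up to 1 kb allowed between shared regions (18.9%). Male-only H3K27Me3, reported at 3 (22.7%), lay at 1 within 5 kb (7.53%), at 5 within 100 kb (35.6%) and at 7 under the reciprocal overlap (42.5%), and none of the 10 alternatives moved male-only H3K4Me1 by more than 1.5 times. Joining regions of a list 1 base apart, chosen after seeing the data, left each of these 6 counts as reported. H3K27Ac at the start in XY ES cells lay at 1 gene in place of 3 with the widest 50% of each list (29.2%). H3K27Me3 lay at a start of all 10 genes in XX (25.9%) and of 9 in XY ES cells (21.7%) where the TSS itself had to be inside the region. With the widest 50% of each list it lay at a start of 9 in each (25.7% in XX and 21.6% in XY ES cells). At the 5′ end alone H3K4Me1 lay at 8 of the 10 genes in XX (58%) and 8 in XY ES cells (57%). A wider distance or a stricter overlap adds members by construction. No paired analysis was possible because the XX and XY lines share no numbers and the deposited lists do not separate the lines, which also left no line to leave out. Without depth or a score, how near an absent region came to the threshold of the other list is unknown.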
